A study of Mus musculus with 2 samples.

Results

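CpG-dense regions far from transcript starts were taken from the mouse genome by sequence position and coverage alone. The autosomes were divided into windows of 200 bp, and a window was kept if it held 12 or more CpG sites covered in at least 1 of 2 replicates and lay more than 5 kb from every GENCODE vM21 transcript start of any gene type. This gave 1084 regions with 14738 covered CpG sites, out of 6754018 windows with a covered CpG site. Of these regions, 678 overlapped the body of a protein-coding gene and 406 did not. They are called CpG-dense distal regions here. The DNA came from E14 mESCs, an established mouse embryonic stem cell line, grown in serum and LIF with no treatment, and 2 passages of the line gave replicate 1 and replicate 2 of a single condition. With 1 line and 1 condition there is no control group. SCoTCH-seq was used to read C, mC and hmC on both strands of each DNA fragment at once.

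CpG islands are stretches where CpG sites have been kept at high density, and most of them sit at promoters. In most tissues a dense stretch that carries a promoter stays free of methylation, whereas the sparse CpG sites in the rest of the genome are methylated by the DNA methyltransferases. TET dioxygenases oxidise mC to hmC, and replication leaves a new strand unmodified until maintenance methylation has acted, so a CpG site can carry different marks on its strands. Dense stretches away from known promoters, often called orphan or intragenic CpG islands, are known to include unannotated promoters, enhancers and exons of GC-rich genes.

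A CpG state is written with the plus strand first: CC is unmodified on both strands, MM is methylated on both, MC/CM is hemimethylated, HC/CH carries hmC opposite C, HM/MH carries hmC opposite mC, and HH carries hmC on both. The level of a state is the mean, over CpG sites, of its percentage of the calls at a site, as called. Merged levels use the summed calls of both replicates. The regions carried 116644 calls at 14041 sites in replicate 1, a mean of 8.31 calls per site, and 23718 calls at 3871 sites in replicate 2, a mean of 6.13. All 1084 regions had a covered site in replicate 1, and 770 had one in replicate 2. Merged levels therefore rest mainly on replicate 1. Differences within the genome were tested by flipping the sign of the differences of the 19 autosomes in every combination (an exact, two-sided permutation test), for which the smallest possible p-value is 3.8e-06. Autosomes are blocks of 1 library and not replicates, and errors are SDs of the replicates (n = 2).

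The sequences below show the kinds of region that the results turn on, as 200 bases of the plus strand of GRCm38 (mm10), 5′ to 3′, with each CpG in capitals. The first is from the longest run of touching regions inside a gene, and it lies in coding sequence of Cilp2, a gene for a cartilage matrix protein.
Cilp2 region, chr8:69881000-69881199: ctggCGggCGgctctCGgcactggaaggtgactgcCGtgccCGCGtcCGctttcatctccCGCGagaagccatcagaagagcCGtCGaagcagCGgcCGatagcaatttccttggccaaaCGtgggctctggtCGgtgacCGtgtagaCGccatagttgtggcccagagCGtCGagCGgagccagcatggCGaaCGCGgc
The next is from the longest run outside genes, near Neurog1, which encodes a proneural transcription factor.
Neurog1 region, chr13:56258800-56258999: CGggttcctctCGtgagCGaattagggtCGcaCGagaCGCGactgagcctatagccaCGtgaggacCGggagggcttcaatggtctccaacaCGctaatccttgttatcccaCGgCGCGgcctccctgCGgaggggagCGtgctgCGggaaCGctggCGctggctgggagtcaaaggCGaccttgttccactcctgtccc
Another, in a coding exon of the potassium channel gene Kcnh4, came first for HC/CH and also for HM/MH when regions with 8 or more covered sites in each replicate were ranked on the lower of their replicate levels.
Kcnh4 region, chr11:100750200-100750399: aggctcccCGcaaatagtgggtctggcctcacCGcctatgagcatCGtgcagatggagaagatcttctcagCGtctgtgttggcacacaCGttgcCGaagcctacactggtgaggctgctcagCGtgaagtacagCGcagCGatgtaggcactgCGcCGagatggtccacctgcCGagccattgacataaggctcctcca
One more, in intergenic DNA with Camta1 as the nearest protein-coding gene, came first for MC/CM in the same ranking.
Camta1 region, chr4:151875200-151875399: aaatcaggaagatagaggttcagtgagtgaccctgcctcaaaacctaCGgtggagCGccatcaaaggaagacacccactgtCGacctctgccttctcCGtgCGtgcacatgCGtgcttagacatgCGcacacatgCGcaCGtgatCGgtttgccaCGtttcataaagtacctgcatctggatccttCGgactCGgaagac
The last are the best covered of the regions that were mostly CC, and of those that were mostly modified, in both replicates. The first is in a coding exon of the phosphatase gene Dupd1 and the second in an intron of the rhotekin gene Rtkn2.
Dupd1 region, chr14:21686600-21686799: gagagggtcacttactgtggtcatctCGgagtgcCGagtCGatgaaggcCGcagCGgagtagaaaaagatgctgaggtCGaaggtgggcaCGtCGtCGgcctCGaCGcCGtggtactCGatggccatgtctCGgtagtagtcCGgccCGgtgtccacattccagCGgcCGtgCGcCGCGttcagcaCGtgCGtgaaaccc
Rtkn2 region, chr10:68006800-68006999: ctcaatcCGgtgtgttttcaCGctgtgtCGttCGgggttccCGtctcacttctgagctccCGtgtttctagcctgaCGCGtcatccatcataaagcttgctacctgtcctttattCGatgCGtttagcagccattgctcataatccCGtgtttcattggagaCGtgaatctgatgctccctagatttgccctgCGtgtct

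These regions differed in composition. The Cilp2 region has a GC content of 65.0%, the Neurog1 region 63.5% and the Dupd1 region 62.5%, against 58.5% for the Kcnh4 region, 53.5% for the Camta1 region and 50.5% for the Rtkn2 region. The Dupd1 region holds 24 reference CpGs, the last of which has its G in the next window, and the Kcnh4 region holds 12. Over all CpG-dense distal regions the median GC content was 59.5% (interquartile range 55 to 64) and the median ratio of observed to expected CpG was 0.863. In the 4940804 other distal windows, which lie more than 5 kb from a start but have 11 or fewer covered sites, these medians were 42.5% and 0.215. In the 11501 equally dense windows within 5 kb of a start, they were 64% and 0.893.

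By annotation, 515 of the 1084 regions (47.5%) touched a coding exon, 144 lay in introns, 25 touched an exon of a gene without touching coding sequence, 27 lay in noncoding genes, and 373 (34.4%) were intergenic. The median distance to the nearest transcript start was 11.9 kb, and the farthest region was 320.9 kb away. A second annotation, RefSeq, places a transcript start within 5 kb of 180 regions. These 180 had a mean CC of 82.2% per region, against 67.1% for the remainder. The threshold on covered sites leaves out much of the dense distal sequence. The reference has 22128 distal windows with 12 or more CpGs, of which 15604 had no covered site, and in 91.9% of those more than 100 of the 200 bases were soft-masked repeat. Windows with 6 to 11 covered sites numbered 2323 and had a merged CC of 54.9%, and windows with 1 to 5 covered sites had 43.1%, against 71.3% in the CpG-dense distal regions. The CC level thus moved with the coverage of the window, and the part of coverage in the results was tested only through the alternatives given in the closing section.

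CpG-dense distal regions were mostly unmodified, unlike the other distal windows, but much less completely than equally dense windows near starts. CC was 71.4% in replicate 1 and 70.3% in replicate 2 (70.8% ± 0.829), against 17.8% and 14.9% in other distal windows. The merged difference was 54.0 percentage points, positive on 19 of 19 autosomes (exact permutation test, adjusted exact p = 7.63e-06 over the 6 states). MM was 18.6% and 18.4% in the regions (18.5% ± 0.0911), against 59.5% and 63.5% in other distal windows, and the merged level was lower by 41.6 points (difference -41.6, 19 of 19 autosomes, same adjusted exact p). MC/CM was 3.27% and 4.48%, against 13.9% and 15.5% (difference -10.7, 19 of 19 autosomes, same adjusted exact p). The replicates do not overlap between the kinds of window for any of these 3 states.

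Against dense windows near transcript starts, every state differed in both replicates. There CC was 96.2% and 95.02%, so the regions were 24.8 points lower (difference -24.8, 19 of 19 autosomes, adjusted exact p = 3.81e-06, exact test). MM near starts was 2.09% and 2.55%, and merged MM was higher in the distal regions by 16.5 points. HC/CH was 3.93% and 4.39% in the distal regions and 0.771% and 1.03% near starts, a merged difference of 3.17 points. HM/MH was 2.40% and 2.00% against 0.295% and 0.370%, a difference of 2.04 points. Finally, HH was 0.423% and 0.445% against 0.0567% and 0.0613%. Each of these merged differences had the same sign on 19 of 19 autosomes.

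**Figure D1:**
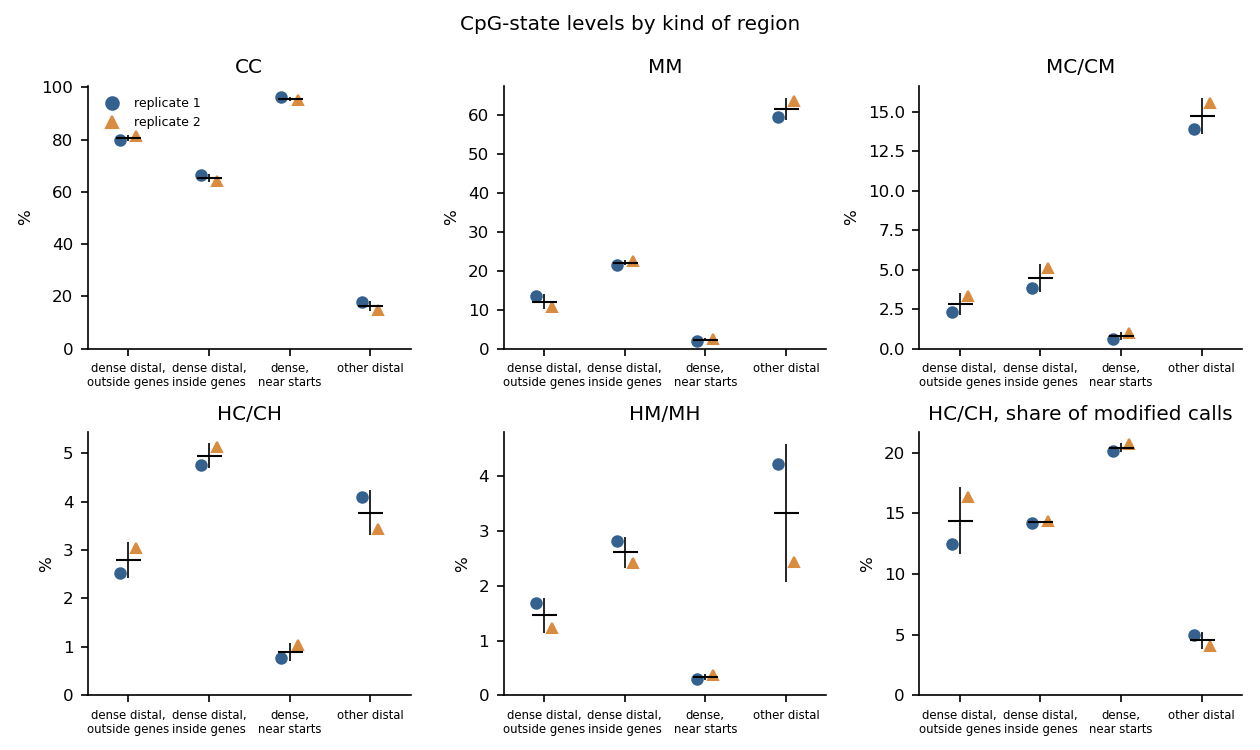
CpG-state levels (percent, mean over sites) in CpG-dense distal regions outside and inside protein-coding genes, in dense windows within 5 kb of a start and in other distal windows, with circles for replicate 1, triangles for replicate 2, and the mean with its SD in black. The last panel gives HC/CH as a percentage of all calls other than CC, where other distal windows sit lowest, at 4.99% and 4.04%.

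The hydroxymethylated states differed less clearly from other distal windows. HC/CH in the regions was 3.93% and 4.39% (4.16% ± 0.329), beside 4.10% and 3.44% in other distal windows. The replicates overlap, and the merged difference of -0.07 points did not pass the test (adjusted exact p = 0.78, 10 of 19 autosomes). Its sign depended on the library and on the settings. Without replicate 1 the difference was 0.950 points (adjusted exact p = 0.0093), and after correction of each replicate by its own spike-in call rates it was 0.591 points (adjusted exact p = 0.0325). With 10 or more covered sites it was 1.25 points and with 16 or more it was -2.44, and both passed, as did 0.792 with at least 10 calls per site and 0.494 with windows weighted equally. Hemimethylated spike-in duplexes were misread as HC/CH at 3.49% in replicate 1 and 0.618% in replicate 2, and other distal windows hold more MC/CM. After correction HC/CH was 3.75% and 4.38% in the regions and 3.57% and 3.39% in other distal windows. The reason that the replicates differ was not tested. HM/MH was 2.40% and 2.00% in the regions and 4.22% and 2.43% in other distal windows, a merged difference of -1.64 points on 18 of 19 autosomes (adjusted exact p = 1.14e-05). Without replicate 1 the difference was -0.436 points, and it was -0.325 with 10 or more covered sites and -3.30 with 16 or more, all of which passed. The call was lost after correction in the mean of the replicates (-0.04 points, adjusted exact p = 0.639), which had opposite signs. Corrected HM/MH in replicate 1 was 1.53% in the regions and 1.34% in other distal windows, which did not pass (adjusted exact p = 0.144). In replicate 2 it was 1.80% and 2.07%, which passed (adjusted exact p = 0.021). The rate at which fully methylated spike-in duplexes were misread as HM/MH was 4.51% for replicate 1 but 0.467% for replicate 2, and other distal windows hold more MM. The part of this misreading in the difference was not tested on its own.

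As a share of the calls that were not CC, HC/CH made up 13.7% in replicate 1 and 14.8% in replicate 2 of the dense regions, against 4.99% and 4.04% in other distal windows and 20.1% and 20.7% in dense windows near starts. Merged HC/CH levels were 3.96% in the regions and 4.03% in other distal windows, so the higher share goes with the lower MM and MC/CM and is not independent of the difference in CC. After correction the share was 13.4% and 15.3% in the regions, 4.33% and 3.97% in other distal windows and 20.7% and 25.5% in dense windows near starts. Near starts the corrected MC/CM was negative, at -0.06% and -0.43%, so the share there rests on calls near the miscall rate. HM/MH made up 8.38% and 6.72% of modified calls in the regions and 5.13% and 2.86% in other distal windows. This comparison was added after the levels had been seen.

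The regions did not share 1 level but were made up of a large unmodified group and a broad, uneven spread of lower levels. Inside genes 51 regions had 0 to 10% CC and 39 had 30 to 40%, and outside genes 24 and 7 did. A region was called unmodified if CC made up at least 75% of its calls, modified if at most 25%, and intermediate between these. Unmodified were 624 of 1084 regions (57.6%, 95% Clopper-Pearson interval 54.6 to 60.5), intermediate 269 (24.8%, 22.3 to 27.5) and modified 191 (17.6%, 15.4 to 20.02). These intervals cover counting of regions only. Among the 96134 other distal windows with 6 or more covered sites, the shares were 8.15%, 23.2% and 68.7%, and among dense windows near starts they were 95.3%, 3.36% and 1.37%. In 468 regions (43.2%) CC reached 90% of the calls, and in 108 no other state was called. These counts were not made for the other windows, so they only describe the regions. Inside genes 331 of 678 regions were unmodified (48.8%) and 140 modified (20.6%), whereas outside genes 293 of 406 were unmodified (72.2%) and 51 modified (12.6%). In replicate 2 alone, 6 of 103 regions outside genes were modified (5.83%).

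**Figure D2:**
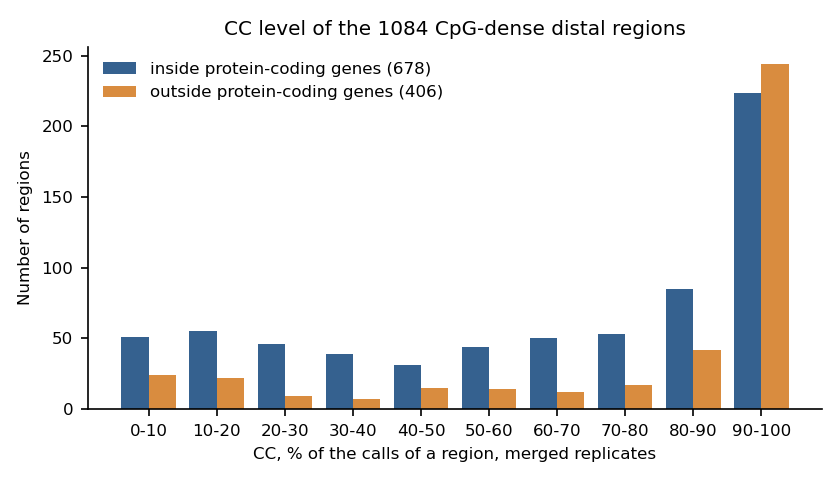
Number of CpG-dense distal regions in each range of CC (percent of the calls of a region, merged replicates), inside protein-coding genes (678 regions) and outside (406 regions). The highest range, 90 to 100%, holds 224 regions inside and 244 outside genes, and the lowest, 0 to 10%, holds 51 and 24.

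The class of a region was stable between the passages. Of the 289 regions with 6 or more covered sites in each replicate, 247 (85.5%) had the same class in both, and 0 went from unmodified to modified. Across these 289 regions the levels of CC in one replicate ranked much as in the other (Spearman's rho 0.918), as did those of MM (0.893). The rho was lower for HM/MH (0.644), HC/CH (0.619) and MC/CM (0.615), and lowest for HH (0.245). Regions are not independent replicates and differ in depth, so these values are descriptive.

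Unmodified regions were richer in G and C than modified ones. Their median GC content was 62.5% (interquartile range 58.0 to 66.5), against 57.5% for intermediate and 54.0% (51.5 to 57) for modified regions, while the median ratio of observed to expected CpG was 0.857, 0.839 and 0.907. Of the 34 regions with more than 100 soft-masked bases, 26 were modified. The GC box, GGGCGG on either strand, which binds SP and KLF factors, occurred in 174 of 624 unmodified regions (27.9%), 39 of 269 intermediate regions (14.5%) and 12 of 191 modified regions (6.28%). It occurred in 35.9% of dense windows near starts and 6.26% of other distal windows with 6 or more sites. The core motif of ZFP57, TGCCGC on either strand, where this zinc finger protein binds methylated DNA at imprinted loci, showed no such order, with 21.5%, 18.2% and 19.4% of the classes and 20.3% of all regions. It occurred in 19.8% of dense windows near starts and 7.02% of other distal windows with 6 or more sites. The reverse complement of TGCCGC shares 4 letters with the end of the GC box, so a run of letters can hold both. The CRE, TGACGTCA, occurred in 11 regions (1.01%), against 1.45% near starts and 0.559% of other distal windows with 6 or more sites. GCGCATGC, part of the NRF1 motif, occurred in 35 regions (3.23%), against 2.53% and 1.21%, and TCGCGAGA, the core of the BANP motif, occurred in 7 (0.646%), against 1.08% and 0.210%. Every motif counted here contains CG, and the regions were chosen for their number of covered CpG sites. That choice partly fixes a higher share in the regions than in other distal windows. The classes differ in GC content, and the GC box holds only G and C. The part of GC content in its order over the classes was not tested. A match is a description of the letters and not a bound site.

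To compare hydroxymethylated states at a like extent of modification, the class was set in 1 replicate and the levels were read in the other. For the 625 dense regions unmodified in replicate 1, HC/CH in replicate 2 was 2.47% over 2299 sites, and not all of them had a covered site there. In 7443 other distal windows of this class with 6 or more sites it was 3.88% over 17076 sites (difference -1.41, 19 of 19 autosomes, adjusted exact p = 3.43e-05). In the opposite direction it was 2.08% in 185 dense regions and 2.72% in 831 other windows (difference -0.64, 15 of 19 autosomes, adjusted exact p = 0.0842), which did not pass. HM/MH in unmodified regions was lower in the dense regions in both directions, at 0.700% against 1.19% and 0.577% against 0.889% (adjusted exact p = 0.000275 and 0.0128). CC within this class was also higher in the dense regions, at 91.5% against 85.5% and 93.1% against 89.8%. It was higher in the intermediate class too, at 49.6% against 37.1% and 59.2% against 49.8%. In the modified class CC was 11.4% against 8.12% and 19.97% against 12.7%. The classes were thus matched only roughly.

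In intermediate regions HC/CH was highest, at 8.77% in replicate 2 and 7.91% in replicate 1, and the other distal windows of that class had 8.36% and 8.17%. The differences of 0.41 and -0.26 points did not pass (adjusted exact p = 0.436 and 0.582). In modified regions HC/CH was 4.70% and 6.77%, beside 4.19% and 5.51% (adjusted exact p = 0.633 and 0.455). With the directions averaged, the difference in HC/CH was -1.02 points in unmodified regions (adjusted exact p = 0.00087), 0.08 points in intermediate regions (adjusted exact p = 0.227) and 0.88 points in modified regions (adjusted exact p = 0.427).

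**Figure D3:**
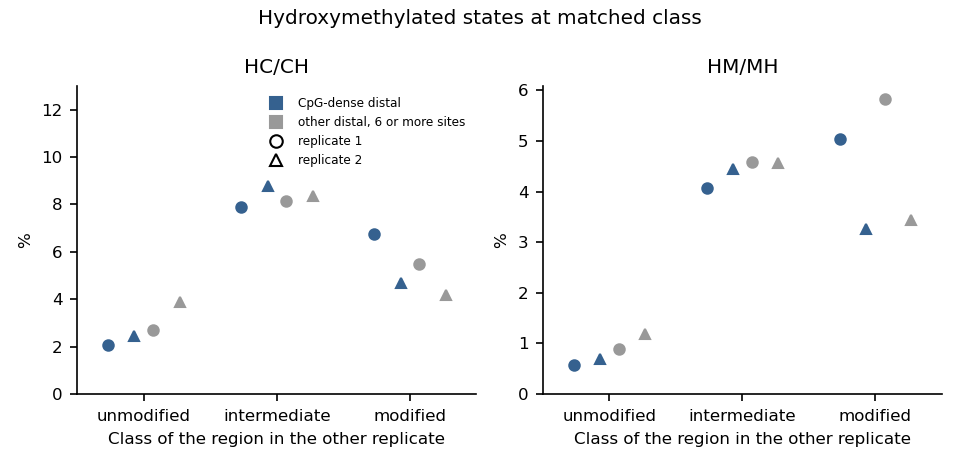
HC/CH and HM/MH levels (percent) by class of the region, with the class set in one replicate and the level read in the other, for CpG-dense distal regions (blue) and other distal windows with 6 or more sites (grey), in replicate 1 (circles) and replicate 2 (triangles). HC/CH is highest in intermediate regions, between 7.91% and 8.77% in all 4 values.

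The levels moved stepwise with the number of covered CpG sites, far from starts as well as near them. Far from starts, CC was 16.96% and 14% in windows with 1 or 2 sites, 37.9% and 35.2% with 9 to 11, 63.0% and 63.1% with 12 or 13, 76.7% and 77.8% with 14 or 15, and 92.0% and 89.4% in the 148 regions with 16 or more. Near starts CC had already reached 80.6% and 78.2% at 9 to 11 sites. HC/CH far from starts was highest just below the threshold, at 6.04% and 5.83% with 9 to 11 sites, and was 1.5% and 2.42% with 16 or more. Its share of modified calls went up over the same steps, from 4.24% and 3.32% at 1 or 2 sites to 18.6% and 22.8% at 16 or more. Across the threshold itself, the 7486 windows just outside had a merged CC of 37.7%, and the 699 regions just inside had 62.9%.

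**Figure D4:**
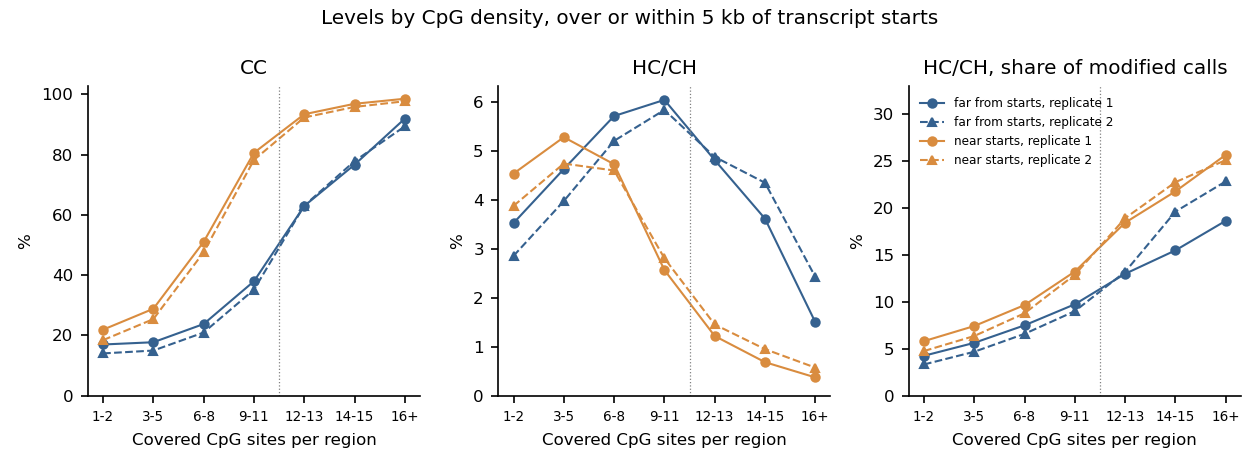
CC, HC/CH and HC/CH as a share of modified calls (percent) by the number of covered CpG sites in a window, more than 5 kb from transcript starts (blue) and within 5 kb (orange), in replicate 1 (circles, solid) and replicate 2 (triangles, dashed). The dotted line marks the threshold of 12 sites, and HC/CH far from starts is highest at 9 to 11 sites, at 6.04% and 5.83%.

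With distance from the nearest start, merged CC was 76.5% in the 439 regions at 5 to 10 kb, 72.7% in 354 regions at 10 to 20 kb, 65.5% in 220 regions at 20 to 50 kb and 48.7% in the 71 regions beyond 50 kb. In replicate 2 the last bin had 59.3% on 155 sites, against 63.1% in the bin before it, so the step there was smaller. Merged HC/CH was between 3.66% and 4.58% in all 4 bins, and replicate 2 reached 5.3% at 20 to 50 kb.

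Inside protein-coding genes the regions carried more of every modified state than outside. CC was 66.5% and 64.2% inside and 79.7% and 81.4% outside, a merged difference of -13.2 points on 19 of 19 autosomes (exact permutation test, adjusted exact p = 2.29e-05). MM was 21.6% and 22.6% inside and 13.4% and 10.8% outside (difference 8.22, adjusted exact p = 2.29e-05). HC/CH was 4.76% and 5.13% inside and 2.52% and 3.05% outside, and the merged difference of 2.22 points was positive on 18 of 19 autosomes (adjusted exact p = 2.29e-05). As a share of modified calls, HC/CH was 14.2% and 14.3% inside and 12.4% and 16.3% outside, with opposite directions in the replicates. The higher HC/CH level inside genes is thus not independent of the lower CC there. HM/MH was 2.82% and 2.42% against 1.68% and 1.24% (difference 1.11, adjusted exact p = 7.78e-05). MC/CM was higher inside by 1.47 points (adjusted exact p = 6.87e-05). HH was higher by 0.188 points (adjusted exact p = 0.014), a call that was lost without replicate 2, where the remaining difference was 0.154 points (adjusted exact p = 0.0561). The replicates did not overlap between inside and outside for any state. In the 148 regions with 16 or more covered sites none of the 6 differences passed over the 15 autosomes with values, and that of CC was -6.68 points (adjusted exact p = 0.222).

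Within genes, CpG sites in coding exons were less modified than those in introns. CC at coding sites was 70.1% and 68.0%, and at intronic sites 56.9% and 54.0%, with a merged difference of 12.7 points (13 of 19 autosomes, adjusted exact p = 0.00997). MM was 18.98% and 19.4% in coding exons and 29.1% and 31.5% in introns (difference -9.78, adjusted exact p = 0.00997), and MC/CM was lower by 1.48 points (difference -1.48, same adjusted exact p). These 3 calls were lost without replicate 1, where the differences were larger (13.95, -12.1 and -2.21 points) and the adjusted exact p was 0.0551 each. They were also lost with at least 10 calls per site, with sites covered in both replicates, with 16 or more sites and over 10 kb from starts. HC/CH was 4.47% and 5.24% in coding exons and 5.40% and 4.73% in introns, and the difference of -0.72 points did not pass (adjusted exact p = 0.237). With respect to the direction of transcription, hmC opposite C lay on the sense strand at 2.34% of calls and on the antisense strand at 2.44%. That difference of -0.10 points, and those of 0.03 points for HM/MH and 0.02 points for MC/CM, did not pass (adjusted exact p = 0.931 each).

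Around unmodified regions, CC was lower with distance over several kilobases on either side. The 625 regions unmodified in replicate 1 were read in replicate 2, where not all of them had a covered site. There CC was 91.5% at the centre, over 2299 sites. It was 66.6% and 66.0% at 500 to 750 bp toward lower and higher coordinates, and 28.1% and 30.6% at 2.5 to 3 kb. Sides follow the coordinates of the reference and not the strand of a gene. At more than 200 and up to 1000 bp from the region, HC/CH was 5.62% in replicate 2 and 5.06% in replicate 1, against 2.47% and 2.08% within. HM/MH was 2.55% and 2.58% in the flanks and 0.700% and 0.577% within. The regions were chosen for a CC of at least 75%, which limits every other state within them, and the flanks were not, so the levels are given as a description. The test of the difference passed (3.07 points for HC/CH and 1.93 for HM/MH, adjusted exact p = 3.81e-06 each), but nothing is drawn from it, since the choice of regions partly fixes it. As a share of modified calls, HC/CH was highest at the centre, at 29.1% and 30.3%. It was 7.70% and 8.51% at 2.5 to 3 kb toward lower coordinates.

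**Figure D5:**
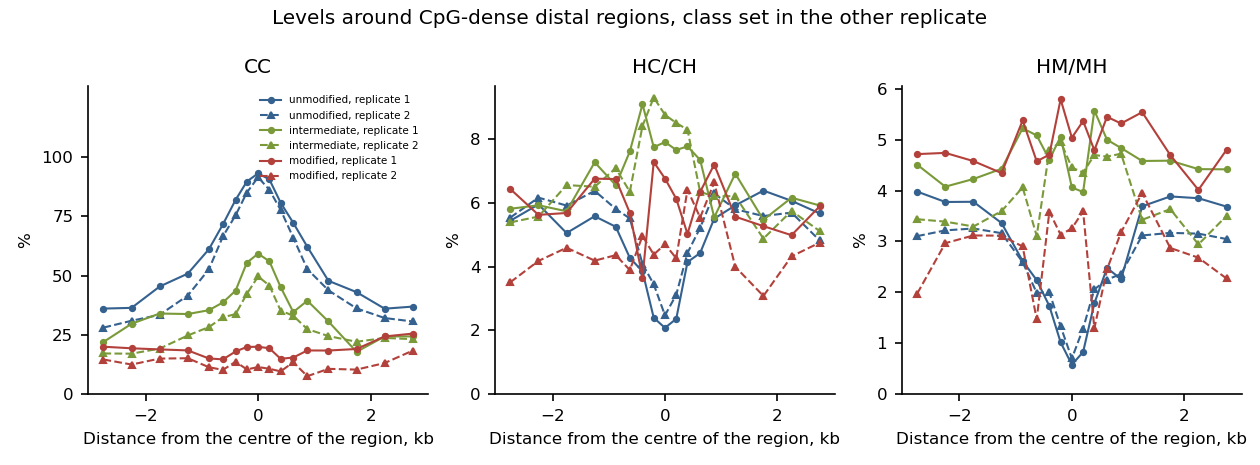
CC, HC/CH and HM/MH levels (percent) by distance from the centre of CpG-dense distal regions, with the class (unmodified, intermediate or modified) set in one replicate and the level read in the other, for replicate 1 (circles, solid) and replicate 2 (triangles, dashed). In unmodified regions HC/CH dips to 2.08% and 2.47% at the centre, whereas intermediate regions have 7.91% and 8.77% there.

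Intermediate regions had the opposite HC/CH profile, with 8.77% and 7.91% at the centre and 5.39% and 5.82% at 2.5 to 3 kb toward lower coordinates. In modified regions CC was 11.4% and 19.97% at the centre and 14.6% and 19.99% at 2.5 to 3 kb toward lower coordinates. Their HC/CH was 4.70% and 6.77% at the centre and 3.51% and 6.44% at that distance. These profiles are descriptions, and their shapes were not tested.

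The regions were spread thinly over genes. Of the 994 runs of touching regions, 922 were a single region, and of 515 protein-coding genes with a region, 406 had only 1. The gene with most regions was Gm20388, with 14, but this annotated gene spans 4.4 Mb of chromosome 8 and covers other genes, among them Gse1. Its regions included all classes, with 6 unmodified, 5 intermediate and 3 modified. Cilp2 and Plec followed with 7 each, all in coding exons, and the levels of these genes were far apart. In Cilp2, CC was 94.6% in replicate 1 and 93.9% in replicate 2 (merged 117 sites, 925 calls), and all 7 regions were unmodified. In Plec, which encodes the cytoskeletal linker plectin, CC was 59.7% and 53.0% (109 sites, 1008 calls), and single regions had between 24.0% and 94.7% CC. HC/CH in Plec was 6.63% and 8.53%, and MM was 23.8% and 22.7%.

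Gse1, Scrt2 and Sptbn4 had 5 regions each. The Gse1 regions were all intronic, with a CC of 75.4% and 80.2% and an HC/CH of 8.75% and 6.92% (merged 61 sites). Scrt2, a neuronal zinc finger repressor, had 99.4% and 100% CC over 697 calls, and Sptbn4, a spectrin of the axon, had 95.6% and 96.8%. Chst5, a sulfotransferase gene, and Jph2, which encodes a junctophilin of heart muscle, had 4 regions each, with a CC of 96.4% and 100%, and of 94.9% and 87.6%. All regions of Scrt2, Sptbn4, Chst5 and Jph2 were unmodified.

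The longest runs were almost free of modification. The Cilp2 run covers 7 touching windows (chr8:69881000-69882399), lies 5288 bp from the nearest GENCODE protein-coding start at its closest point and lies 1026 bp from a RefSeq start. Runs of 4 windows lay in coding exons of the zinc finger gene Zscan2 (chr7:80875400-80876199, CC 95.6% and 96.9%) and of Chst5 (chr8:111890000-111890799). Runs of 3 lay in Zfp697 (chr3:98428000-98428599, CC 99.6% and 100%) and Jph2 (chr2:163375800-163376399, CC 93.8% and 85.7%). Outside genes the longest run was 3 windows at 6437 bp from Neurog1 (chr13:56258600-56259199), with a CC of 100% and 97.8% over 226 calls. Pairs of windows nearest to Olfr545, Foxe1 and Ctc1 were among the longest runs outside genes after it. At the pairs near Foxe1 (202 calls) and Ctc1 (260 calls) no state other than CC was called, which allows up to 1.49% and 1.15% of calls in any other state, for counting error only. The Ctc1 pair overlaps a RefSeq transcript start and the Foxe1 pair lies 857 bp from one.

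The regions ranked first for hydroxymethylation were mostly of the intermediate class. They were chosen by their levels, on the lower of the replicates, among the 145 regions with 8 or more covered sites in each, so their values are a description. Over these 145 regions the median HC/CH was 2.82% in replicate 1 and 2.22% in replicate 2, and the highest values were 23.1% and 18.3%. The region in Kcnh4, printed above, had an HC/CH of 13.7% and 15% and an HM/MH of 7.56% and 15.4%, with a CC of 50.9% and 31.3%, over 123 and 44 calls. An intergenic region with the glutamate receptor gene Grm4 as its nearest gene (chr17:27415200-27415399) had 12.3% and 13.7% HC/CH over 235 and 142 calls, and an intronic region of Ric8b had 12.7% and 12.02%. A coding region of Zfp334 had 11.9% and 12.7%. In HM/MH the Kcnh4 region was followed by coding regions of Nsf, the ATPase of membrane fusion, at 6.91% and 8.90%, and of the centrosomal gene Cep97, at 9.41% and 6.37%. An intergenic region with Adgrl2 as its nearest gene had 6.25% and 7.41%. The Nsf region was of the modified class, with a CC of 16.4% and 9.35%.

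Hemimethylation was highest in a region 13324 bp from Camta1, printed above, with an MC/CM of 18.8% and 19.4% over 99 and 51 calls and a CC of 32.5% and 38.2%. Another region, 24124 bp from Camta1, had 11.9% and 15.5%, and a coding region of Fhad1 had 11.4% and 12.5%. The median MC/CM of the 145 regions was 1.53% and 2.22%. With 44 to 235 calls per replicate in the regions named here, single levels are coarse: the merged HC/CH of the Kcnh4 region by calls had a 95% Clopper-Pearson interval of 9.43 to 20.6%.

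The printed Dupd1 and Rtkn2 regions were chosen for their coverage within the unmodified and the modified class. In the Dupd1 region CC was 77.2% and 84.6% and HC/CH 10.5% and 4.63%, over 137 and 132 calls. In the Rtkn2 region CC was 16.2% and 8.01%, MM 66.0% and 67.2% and MC/CM 8.39% and 18.2%, over 102 and 74 calls.

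Grouped by the nearest protein-coding transcript start, regions near developmental transcription factors were mostly free of modification. The list of homeobox, forkhead, SOX, GATA, T-box, PAX and related families took 64 regions at 43 genes, of which 20 were inside a protein-coding gene. Of the 64 regions, 53 were unmodified (82.8%), 6 intermediate and 5 modified, beside 624 of all 1084 regions (57.6%). Over all regions the unmodified share was 48.8% inside protein-coding genes and 72.2% outside, and most of the 64 lay outside. The median CC of the 64 regions was 96.5%, beside 85.5% over all regions. The 3 regions nearest to Pax2, a kidney and eye regulator, had 374 calls, all CC, which allows up to 0.802% in any other state. The 3 regions nearest to Foxd1 had 98.9% and 100% CC, and the 3 nearest to Evx1, a homeobox gene beside the HoxA cluster, had 92.6% and 87.7%. The 3 nearest to Foxp4 were less uniform, with 76.6% and 59.2% and a lowest region of 25.4% of calls. The 5 modified regions were nearest to Six3, Tbx15, Olig1, Pou2f2 and Sox2, and the one nearest to Six3, 223209 bp away, had 2.52% CC. The nearest start does not show which gene, if any, a region acts on.

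Regions near zinc finger genes of the Zfp series included 34 of 47 unmodified (72.3%, beside 57.6% of all regions), 9 intermediate and 4 modified, with a median CC of 91.9%. Of the 47, 27 were inside a protein-coding gene. Zfp423, a regulator of neural and adipose differentiation, had 5 regions with between 37.5% and 99.2% CC. The pluripotency list took 5 regions at 4 genes, of which Sox2 and Tbx3 also belong to the developmental list. One lay 109595 bp from Sox2 (chr3:34760000-34760199) and had 87 calls at 12 sites in replicate 1, all CC, which allows up to 3.45% in any other state. Another lay 308795 bp from Sox2 (chr3:34959200-34959399) and had 20.6% and 9.46% CC with an HC/CH of 10.8% and 11.2%, at 12 and 5 sites. The region in Esrrb had 99.4% CC in replicate 1, where it had 13 sites. The one near Sall4 had 71.4% over 38 calls and 86.3% over 75 calls. The one near Tbx3 had 53.1% over 85 calls and 25.0% over 20 calls. Only 3 regions were nearest to a gene of the imprinted list. Those nearest to Sgce and Trappc9 were modified, with 13.2% and 17.4% merged CC, and the one nearest to Slc38a4 had 62.4%. In replicate 1 CC was 13.2%, 21.9% and 65.9% in this order, over 123, 105 and 90 calls. In replicate 2 it was 0% in all 3, over 5, 35 and 16 calls at 1, 6 and 3 sites.

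Of the 1084 regions, 8 (0.738%) lay in a regulatory element that RefSeq lists. The share of other windows in such elements was not counted, so nothing is drawn from this number. They were looked up after their values were seen. Of these, 7 had at least 95.3% merged CC as a mean over sites. Several of the 7, among them the Sox2 region above, had no covered site in replicate 2. By a different measure, the share of calls, 43.2% of all regions reached 90% CC, and outside genes 60.1% did. The 7 include the Sox2 region above, a region in an enhancer within Slc2a3 (chr6:122765000-122765199, 100% and 97.5%) and one near Sall1 (100% and 97.1%). The exception, in an enhancer with Tle3 as the nearest gene (chr9:61603000-61603199), had 41.2% CC at 12 sites in replicate 1 and an HC/CH of 7.86% in the merged data.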

How the data were processed

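CpG states of 2 replicates of E14 mESCs were analysed from 1 table per replicate. Per the deposited tables, the authors gave, for each CpG site and state, the count of duplex calls and its percent of the calls at the site, for sites with at least 5 calls. The submitters' processing notes name cutadapt 4.6 and Picard 3.1.1. From these counts, percentages were computed again per site, replicates were merged by summing counts, and sites were assigned to windows of 200 bp on mm10. Transcript starts and genes were taken from GENCODE vM21, and sequences and regulatory elements from the GRCm38 reference and RefSeq. Levels were not corrected for miscalls, which spike-in duplexes measured. Correction by each replicate's own rates was an alternative.

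Differences were tested with exact sign-flip permutation tests over the 19 autosomes, two-sided, with Benjamini-Hochberg adjustment within a comparison and a threshold of 0.05. The 2 replicates allow no test between samples. Binomial intervals (Clopper-Pearson, 95%) and the limit of 3 counts for a state that was not called cover counting error only. Over the autosomes, replicate 1 had 13366464 sites with a mean of 10.6 calls, and replicate 2 had 4882356 sites with a mean of 6.37. The steps were tested on simulated data. Python 3.11.15, NumPy 2.4.6, pandas 2.3.3, SciPy 1.17.1 and Matplotlib 3.10.9 were used.

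Named genes were the 8 protein-coding genes with most regions, the 5 longest runs inside and the 5 outside genes, the 4 regions ranked first for HC/CH, HM/MH and MC/CM, and genes of 4 lists taken by the nearest protein-coding start. Some items that this rule names are not reported here. The regions and lists were chosen with earlier results of these data known. Windows on sex chromosomes were left out.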

Additional observations from a re-analysis of the deposited data

How the results depend on the processing

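Across 15 alternative settings of the comparisons, and those of the class shares and matched classes, 427 of 509 values were unchanged. Unchanged means the same direction and side of the threshold or, for class shares, a change below the SD of the replicates. All 90 values of the 6 states against dense windows near starts were unchanged. Replicate 1 carries most calls, and with a mean of 6.13 calls per site in replicate 2 single regions are coarse there. The cause of each change below was not tested. No paired analysis was possible because the replicates belong to 1 group.

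The difference in HC/CH between the dense regions and other distal windows (-0.07 points) turned positive with the spike-in correction (0.591), at least 10 calls per site (0.792), pooled calls (0.341), windows weighted equally (0.494), sites covered in both replicates (0.534), 10 or more covered sites (1.25), a distance over 10 kb (0.338), 12 or more reference CpGs with 6 covered (0.447), and a distance over 5 kb from RefSeq starts (0.247, added after seeing the data). Of these, the values with the correction, at least 10 calls, equal weights, 10 or more sites and reference CpGs passed the test, and the other 4 did not. With 16 or more covered sites it was -2.44 and also passed. Leaving out a replicate gave -0.174 to 0.950, and the latter, without replicate 1, passed. For HM/MH the correction gave -0.0410 as the mean of the replicates, which did not pass. It gave 0.192 in replicate 1, which did not pass, and -0.274 in replicate 2, which passed. HH passed with the correction (0.283), 10 or more sites (0.202) and reference CpGs (0.103), turned to -0.298 with 16 or more sites, which passed too, and ranged from -0.0533 to 0.295 when a replicate was left out, passing without replicate 1.

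As shares of modified calls against dense windows near starts, the HM/MH difference of 0.508 points turned to -2.12 with the correction, -0.0565 for sites in both replicates, -0.113 with 10 or more sites, -0.298 on a grid shifted by 100 bp and -0.288 with reference CpGs, and ranged from -0.715 to 0.679 without a replicate. The main value did not pass, whereas those with the correction and with reference CpGs did. The HC/CH share with 16 or more sites was -6.33 and did not pass.

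Inside against outside genes, no difference passed with 16 or more sites, where CC differed by -6.68 and MM by 4.27, MC/CM by 1.31, HC/CH by 0.973, HM/MH by 0.245 and HH by -0.120. HH also did not pass with at least 10 calls (0.175) or away from RefSeq starts (0.186), and ranged from 0.154 to 0.307 without a replicate.

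Coding exons against introns lost the calls for CC, MM and MC/CM with at least 10 calls (12.6, -9.73 and -1.22), sites in both replicates (16.6, -13.8 and -1.69), 16 or more sites (8.46, -6.75 and -1.80) and over 10 kb (11.1, -8.84 and -1.15), and MC/CM with windows weighted equally (-1.17). Without a replicate these ranged from 13.2 to 13.95, -12.1 to -10.1 and -2.21 to -1.41. HC/CH turned to 0.417 with 16 or more sites, passed away from RefSeq starts (-1.18) and ranged from -0.933 to 0.507 without a replicate. HM/MH passed with 10 or more sites (-0.645), on the shifted grid (-1.16) and away from RefSeq starts (-0.975). HH turned to 0.128 with at least 10 calls, 0.0254 for sites in both replicates and 0.0630 with 16 or more sites.

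Sense against antisense passed under none of the 15 settings. HC/CH turned to 0.0290 with the correction, 0.0532 with 10 or more sites, 0.00453 with 16 or more, 0.0381 on the shifted grid and 0.0655 with reference CpGs, and ranged from -0.156 to 0.207. HM/MH turned to -0.0331 with 10 or more sites, -0.0916 on the shifted grid, -0.0521 with reference CpGs and -0.0180 away from RefSeq starts, and ranged from -0.0151 to 0.0514. MC/CM turned to -0.0836 with at least 10 calls, -0.0601 with 16 or more sites and -0.0356 with reference CpGs.

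Flanks minus unmodified regions, a difference that the choice of the class partly fixes, gave 2.26 for HC/CH and 5.04 for HM/MH with at least 10 calls. Neither passed there, with the same sign on 6 of the 10 autosomes that had values, whereas both passed in the main setting and the other alternatives, and nothing is drawn from either outcome. In single replicates, the unmodified share was 58.0 to 62.7%, the intermediate 23.0 to 24.8% and the modified 14.2 to 17.3%. Only 32 regions had 12 or more sites in replicate 2, of which 26 were unmodified and 1 modified (3.12%). Class thresholds of 80% and 20% gave 31.1% intermediate and 14.02% modified regions. With these thresholds, added for the matched classes after seeing the data, HC/CH in intermediate regions differed from other distal windows by -0.0678 points, and HM/MH by -0.793, which passed.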
